A study of Mus musculus with 17 samples.

Results

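The 10 genes of fibrosis and mesangial matrix described here are Tgfb1, Tgfbr1, Ccn2, Pdgfrb, Fn1, Col1a1, Col1a2, Col4a1, Col4a3 and Acta2, taken by name out of 55413 annotated mouse genes. For each gene, the positions of accessible chromatin were read from 10 kb upstream of the gene to its end. ATAC-seq, in which the transposase Tn5 inserts adapters into open DNA that is then sequenced, was applied to kidney cells of 17 male mice, with 20000 cells per library. The Ctrl group held 5 wild-type C57BL/6 mice given saline. The Case group held 6 db/db mice given saline, of strain BKS.Cg-Dock7m +/+ Leprdb/J, which carry a mutation of the leptin receptor and become obese and diabetic. The Dapa group held 6 db/db mice of that strain that received 1 mg/kg/day of dapagliflozin, a drug that blocks renal glucose uptake through SGLT2. Treatment started at 8 weeks of age and lasted 6 weeks. Genotype, diabetes and background strain differ together between Ctrl and both db/db groups and cannot be told apart. The cells came from the kidney as a whole, so a cell type that is rare gives few reads, and fewer cells of a type and less open chromatin per cell cannot be told apart.

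In a scarring kidney, TGF-beta1 binds a receptor complex that includes the type I receptor kinase encoded by Tgfbr1, and the kinase phosphorylates SMAD proteins, which enter the nucleus and act on matrix genes. Ccn2, connective tissue growth factor, is a target of this pathway and of the YAP and TEAD factors. PDGF receptor beta, encoded by Pdgfrb, drives the growth of mesangial cells, pericytes and fibroblasts, and Acta2, smooth muscle actin alpha, marks contractile cells and myofibroblasts. Fibronectin (Fn1) and the chains of type I collagen (Col1a1 and Col1a2) are laid down in scars, whereas type IV collagen forms basement membranes. The chains encoded by Col4a1 and Col4a2 are widespread, and those of Col4a3, Col4a4 and Col4a5 build the mature glomerular basement membrane.

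The sequences before 3 of the genes are shown first because they hold a contrast among the members: 1 promoter with a summit in every mouse (Tgfbr1), 1 with a summit in 7 of 17 libraries (Tgfb1) and 1 with none in any equal-length list (Acta2). Each run is the 250 bases before the annotated start on the gene's own strand, from the RefSeq copy of GRCm38.p6, the assembly of mm10, with motif matches in capitals. The positions are chr4:47352972-47353221 (plus strand) for Tgfbr1, chr7:25686752-25687001 (plus) for Tgfb1 and chr19:34255591-34255840 (minus) for Acta2.
Tgfbr1: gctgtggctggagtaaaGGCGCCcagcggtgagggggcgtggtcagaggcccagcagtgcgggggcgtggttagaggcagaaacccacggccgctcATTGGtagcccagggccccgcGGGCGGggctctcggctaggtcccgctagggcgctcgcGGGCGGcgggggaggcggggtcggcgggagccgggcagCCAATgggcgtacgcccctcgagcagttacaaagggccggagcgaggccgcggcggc
Tgfb1: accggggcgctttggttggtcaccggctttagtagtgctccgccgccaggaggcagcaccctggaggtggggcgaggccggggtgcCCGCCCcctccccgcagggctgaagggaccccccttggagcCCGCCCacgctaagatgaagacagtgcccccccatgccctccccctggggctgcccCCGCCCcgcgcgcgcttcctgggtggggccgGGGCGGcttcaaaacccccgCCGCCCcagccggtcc
Acta2: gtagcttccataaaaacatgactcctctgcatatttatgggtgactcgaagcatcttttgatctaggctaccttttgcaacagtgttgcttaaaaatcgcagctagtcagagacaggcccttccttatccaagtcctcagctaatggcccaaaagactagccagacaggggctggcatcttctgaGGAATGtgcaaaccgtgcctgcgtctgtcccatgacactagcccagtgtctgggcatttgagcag

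The Acta2 run holds the TEAD motif GGAATG once, starting at −65 bp. Over all 21938 protein-coding genes, 11.5% of promoters of this length hold GGAATG on either strand. The Tgfb1 run holds 5 copies of the Sp1 GC box GGGCGG (39% of promoters hold at least 1), and the Tgfbr1 run holds 2 of these, 2 CCAAT boxes (letters CCAAT, 36% of promoters) and 1 SMAD GC site (GGCGCC, 10.9%). The promoter of Ccn2 was left out of the motif counts. Of the other 9 promoters, CCAAT was found in 6, GGGCGG in 4 and GGCGCC in 2. None of the 9 held the SMAD palindrome GTCTAGAC (0.173% of promoters), the AP-1 motif TGANTCA (6.05%), the CArG box (1.33%), TATAAA (11.5%) or the ETS motif CCGGAA (13.7%). Both strands were searched, and overlapping matches were allowed. A match is a run of letters and not a measured binding site.

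A pair of stretches from regions of Col4a3 that were found in nearly all mice are shown for that reason. The 71 bases between the starts of Col4a4 and Col4a3, which are read in opposite directions, lie at chr1:82586850-82586920, within a wider promoter region whose summits mostly fall beside these bases. The other run is 300 bases around the main summit of an intronic region of Col4a3, at chr1:82634696-82634995, found in all 17 libraries. Both are on the plus strand of GRCm38.p6, and neither held any of the 9 motifs, so they have no capitals.
Col4a4 to Col4a3: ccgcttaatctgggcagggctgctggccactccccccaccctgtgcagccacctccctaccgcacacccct
Col4a3 intron: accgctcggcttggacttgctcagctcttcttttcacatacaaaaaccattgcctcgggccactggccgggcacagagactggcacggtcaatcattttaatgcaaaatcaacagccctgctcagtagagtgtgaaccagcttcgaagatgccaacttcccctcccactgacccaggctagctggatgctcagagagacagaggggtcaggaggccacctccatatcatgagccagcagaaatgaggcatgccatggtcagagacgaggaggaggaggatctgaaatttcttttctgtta

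Each library was deposited as a list of summits, the positions where accessibility peaked, each scored by the peak caller (−log10 of a p-value or q-value). The lists held 29702 to 56659 summits, with group means of 45444 ± 7197 (SD, n = 5) in Ctrl, 37299 ± 8784 (SD, n = 6) in Case and 40574 ± 6987 (SD, n = 6) in Dapa. To compare lists of 1 length, the 29702 highest-scoring summits of every library were used (the equal-length lists), and each summit was given its rank percentile within its list (100 for the highest score, tied scores sharing a value). A gene's value in a mouse is the percentile of its highest summit, or 0 without one. Proximal tubule genes, the main epithelium of the kidney, had a summit within 1 kb of a start for 3 to 6 of 6 markers per library, and genes of other organs for 0 or 1 of 6. Endothelial markers had one for 0 or 1 of 6, and podocyte markers for 1 to 4 of 6. Of 16 mesangial and mural markers, 3 to 6 had one, and Gata3, Tagln, Myh11, Cnn1 and Notch3 had none in any library. Of 10 leukocyte markers, Case 3 had 4 and Dapa 8 had 3 with such a summit, against 0 to 2 in the other libraries, and Ptprc, Adgre1 and Itgam were among those with none anywhere. Differences that rest on them are given with and without these libraries.

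The members fell into 3 classes by level. Tgfbr1, Tgfb1, Col4a1 and Col4a3 had a summit in their window in all 17 libraries. Ccn2, Col1a1, Pdgfrb and Fn1 had one in some mice. Col1a2 and Acta2 had none in any equal-length list. The highest percentiles in Ctrl ran, by mean, in the order Tgfbr1 (97.6 ± 1.53), Col4a3 (87.7 ± 4.19), Tgfb1 (79.3 ± 5.76), Col4a1 (78.6 ± 7.06), Ccn2 (73 ± 9.38), Col1a1 (9.8 ± 21.4), Fn1 (8.43 ± 16.3) and Pdgfrb (1.43 ± 3.2), each as mean ± SD with n = 5. Tgfbr1 lay above all others in each Ctrl mouse, the next 4 overlapped in their ranges, and the last 3 overlapped one another. Over all genes tested, the medians were 55.5 (Ctrl), 51 (Case) and 52.6 (Dapa). By group median, the members of the upper class lay above these values and those of the middle class, Ccn2 in Ctrl apart, below them. Single mice departed from this, such as Case 3 for Pdgfrb (60.9). Window length, from 13.2 kb (Ccn2) to 145 kb (Col4a3), was not adjusted for, and a longer window has more room for a high summit.

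**Figure D1:**
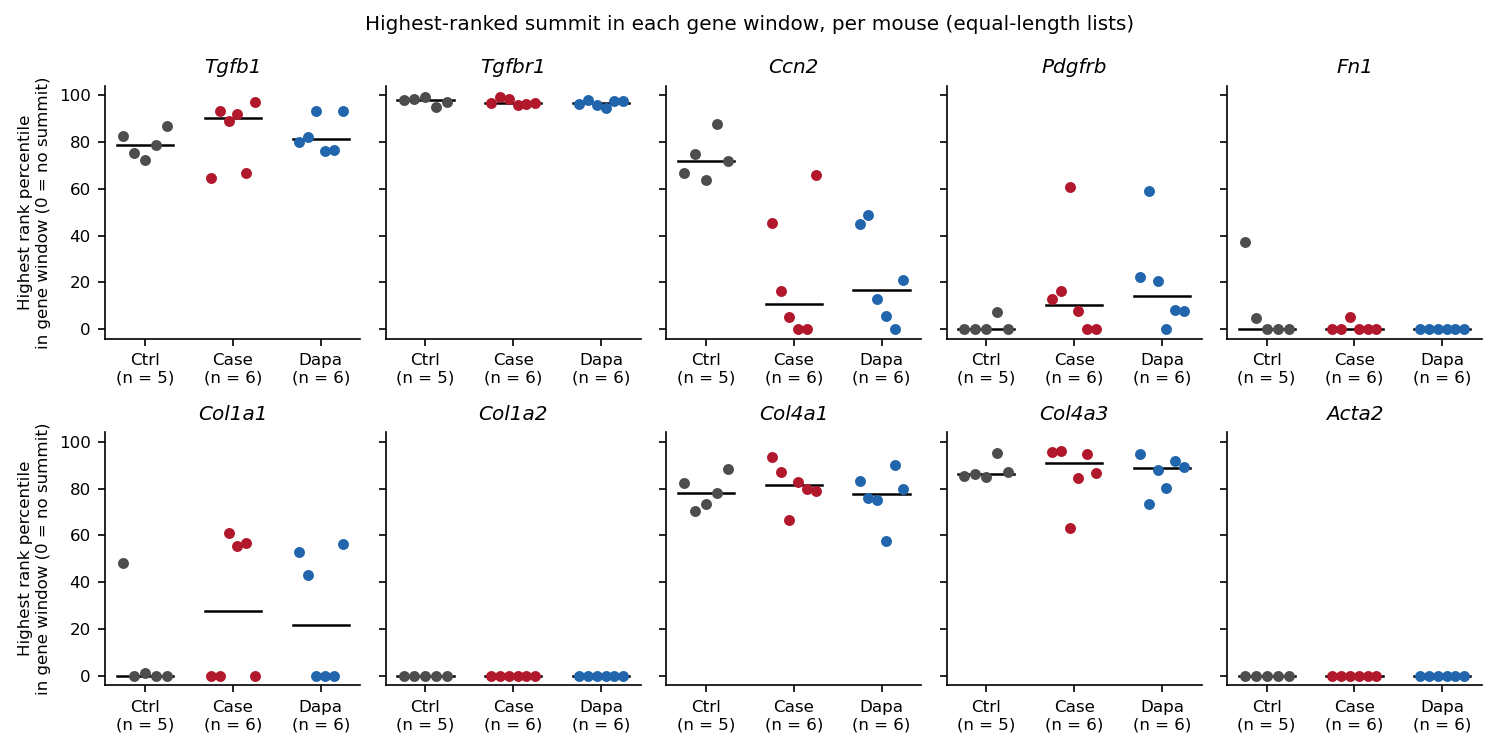
Rank percentile of the highest summit in each gene window (y axis, 0 for no summit) for every mouse, by group, with black lines at the group medians. Tgfbr1 stays between 94.6 and 99.4 in all mice, Ccn2 lies between 63.6 and 87.8 in Ctrl and between 0 and 66.1 in db/db mice, and Col1a2 and Acta2 are at 0 throughout.

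The first question was whether the diabetic kidney differed from the control kidney at these genes. Ccn2 fell in db/db mice and no other member was called. Its percentile was 66.8, 75, 63.6, 87.8 and 72.1 in Ctrl mice 1 to 5. In Case mice the lowest was 0, the median 10.8 and the highest 66.1, and in Dapa mice these were 0, 16.9 and 48.8. All 6 Dapa mice and 5 of 6 Case mice lay below every Ctrl mouse, and Case 6, at 66.1, overlapped the Ctrl range. The means were 73 ± 9.38 (SD, n = 5) in Ctrl and 22.2 ± 23.1 (SD, n = 12) over both db/db groups, a difference of −50.8 with a standard error of 11.8 (limma, adjusted p = 0.0385 over all genes tested). Of the 8 members tested 1 was called, and over all 28500 genes tested the share called in this comparison was 0.832%.

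Against Ctrl, Ccn2 differed by −50.9 (SE 13.4) in Case (limma adjusted p = 0.0845) and by −50.8 (SE 13.4) in Dapa (limma adjusted p = 0.114). The same Ctrl mice stand in both comparisons, and neither passed the threshold of 0.05. No member was called in either, where 0.386% of all genes tested were called for Case and 0.126% for Dapa. At an unadjusted p under 0.05, Ccn2 was the single member of 8 in each of the 3 comparisons against Ctrl, beside 12.1% of all genes for Case, 11.2% for Dapa and 12.8% for db/db, so that the unadjusted share of members was near that of all genes. Ccn2 was also the single member whose groups did not overlap, in Dapa against Ctrl, where 1.93% of all genes did not overlap. No member was separated so in Case against Ctrl (1.93% of genes), Dapa against Case (0.14%) or db/db against Ctrl (0.526%).

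The Ccn2 call was close to the threshold. It was lost when complete lists were used (difference −46.2, limma adjusted p = 0.0912), with an exact permutation test in place of limma (adjusted p = 0.0758, unadjusted p = 6.46e-04, 2-sided) and when any 1 of the 5 Ctrl mice, Case 4, Case 5 or Dapa 9, 10, 11 or 12 was left out (limma adjusted p 0.0516 to 0.106, differences −53.2 to −47.2). Over all 29 alternatives, 16 kept the call, the adjusted p ran from 0.00207 to 0.106, and the difference ran from −59.8 to −43.4. With the 14851 highest-scoring summits, Ccn2 was also called for Case (difference −40.7, limma adjusted p = 0.0419) and for Dapa (difference −46.1, limma adjusted p = 0.0297). Without Case 3 and Dapa 8 the difference of both db/db groups from Ctrl was −51.8 (limma adjusted p = 0.0388), and neither Case (−47.5, limma adjusted p = 0.122) nor Dapa (−56.1, limma adjusted p = 0.0919) was called on its own. With scores of at least 5, where lists differ in length between groups and the median difference of all genes was −7.95 for Case, both were called as well (Case, difference −57.7, limma adjusted p = 0.0107, and Dapa, difference −61.9, limma adjusted p = 0.00968). These comparisons share the Ctrl mice.

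The highest summit of Ccn2 lay at its promoter in every Ctrl mouse. The region around its start had its median summit at −16 bp and was found in all 5 Ctrl mice, in 3 of 6 Case mice and in 4 of 6 Dapa mice. The difference in presence between db/db and Ctrl did not pass Fisher's exact test (p = 0.245), and for Case or Dapa alone against Ctrl the number of libraries did not allow a test. The summit of Case 3 lay apart at +893 bp (percentile 5.38), and that of Dapa 10 lay at +1710 bp in an exon of Ccn2 (percentile 5.65). The noncoding gene Gm15270 overlaps this promoter. In complete lists, Ctrl mice lay between 77 and 91.5, Case mice between 0 and 73.7 with a median of 29.2, and Dapa mice between 16.3 and 68 with a median of 30. Complete lists differ in length between groups, which moves percentiles. Ctrl libraries held more promoter summits in general: 51.5 ± 0.47% (SD, n = 5) of protein-coding genes had a summit within 1 kb of a start, against 47.7 ± 1.61% (SD, n = 6) in Case and 48.5 ± 1.68% (SD, n = 6) in Dapa. The median difference over all genes tested in that promoter window was −1.94 points for db/db against Ctrl. Of the mesangial markers, Itga8, an integrin chain of mesangial cells, had a summit within 1 kb of a start in 5 Ctrl mice, 2 Case mice and 1 Dapa mouse (percentile difference of db/db from Ctrl −12.1, limma adjusted p = 0.558). Itga8 is named outside the rule for lists. Cspg4, of the same list, did not fall and had such a summit in 4 Ctrl mice, 5 Case mice and 6 Dapa mice. The mesangial and mural list did not move as a whole. Of its 13 tested genes, 6 had a positive and 7 a negative difference of db/db from Ctrl (−23.8 to 27.1), and none was called. The part of promoter summits in general, or of mesangial cells, in the Ccn2 difference was not tested.

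**Figure D2:**
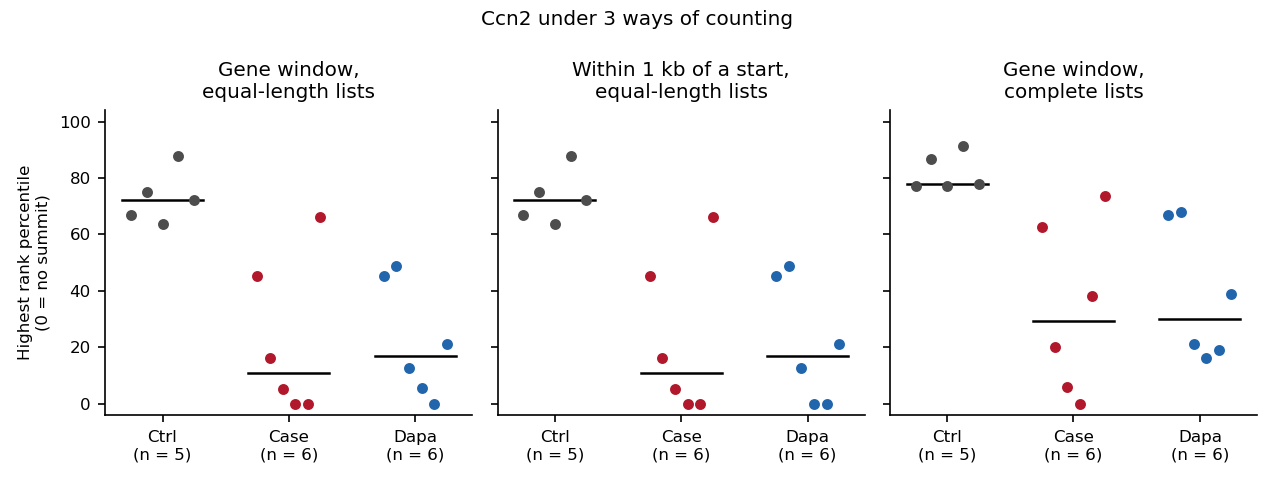
Highest rank percentile of Ccn2 (y axis, 0 for no summit) per mouse by group in the gene window, within 1 kb of a start, and in complete lists, with black lines at the medians. The Ctrl mice sit between 63.6 and 87.8 in equal-length lists and between 77 and 91.5 in complete lists, and most db/db mice lie below them.

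The second question was whether dapagliflozin changed these genes in db/db mice. No member was called, as for all genes tested (0% called, and 5.91% at an unadjusted p under 0.05, where no member passed). Ccn2 was 22.2 ± 20.4 (SD, n = 6) in Dapa and 22.2 ± 27.4 (SD, n = 6) in Case, a difference of 0.0673 with a standard error of 12.8 (limma adjusted p = 1). The differences of the 8 members ran from −4.52 (Col4a1) to 3.32 (Pdgfrb), with 6 negative and 2 positive. Without Case 3 and Dapa 8 they ran from −8.6 (Ccn2) to 4.39 (Pdgfrb), and that of Tgfb1 turned from −0.212 to 1.13. The Ccn2 difference changed sign in 10 of 28 alternatives, and no alternative called a member in this comparison. The standard errors ran up to 14.7 points (Col1a1), and changes well above 1 standard error could be missed here. For scale, the Ccn2 difference of −50.9 for Case against Ctrl was not called (limma adjusted p = 0.0845).

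**Figure D3:**
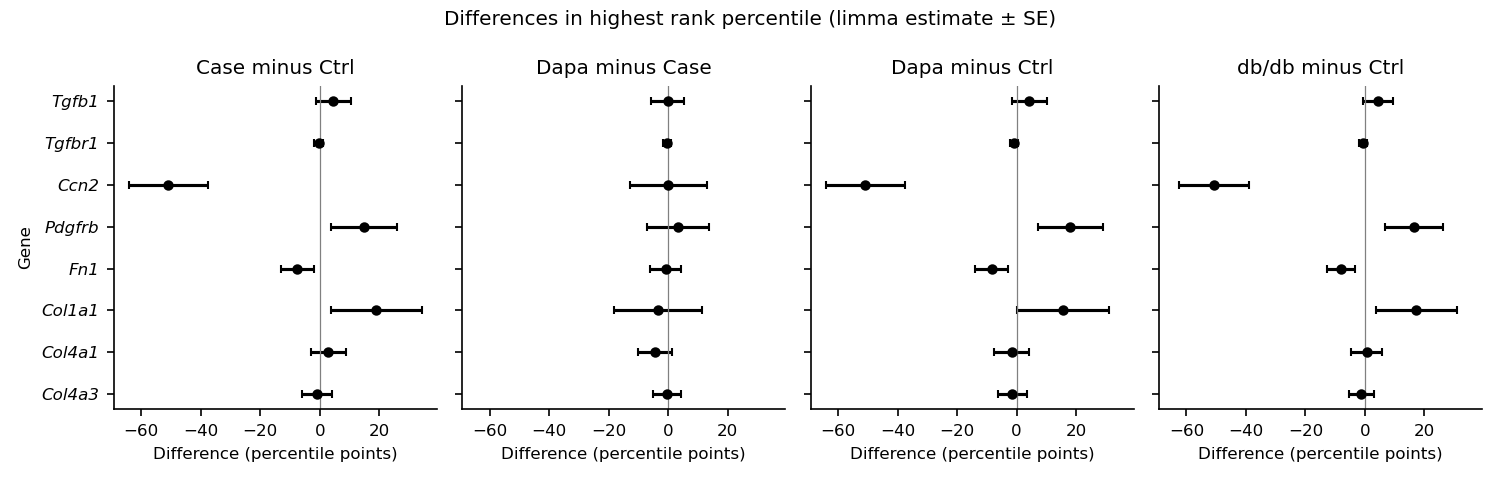
Differences in highest rank percentile for the 8 members tested (points, limma estimates; bars, standard errors) in the 4 comparisons, in percentile points. Ccn2 stands at about the same negative value in each comparison against Ctrl, −50.9 in Case and −50.8 in Dapa, and near 0 between Dapa and Case.

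Of the other signalling genes, Tgfbr1 was among the highest-ranked promoters in every mouse. It stood at 97.9, 98.5, 99.2, 95.2 and 97.3 in Ctrl, between 96 and 99.4 in Case (median 96.6) and between 94.6 and 98.2 in Dapa (median 96.8). The groups overlapped, and the difference of db/db from Ctrl was −0.668 (SE 1.23, limma adjusted p = 0.829). The summit lay at −82 bp by median, in chr4:47352780-47353418, and moved by at most 138 bp among the 17 libraries. A summit within 1 kb of a start was found in all 17 libraries for 31.6% of protein-coding genes.

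Tgfb1, the ligand, had a high value in its window that did not come from its own promoter. The window gave 82.6, 75.5, 72.5, 78.8 and 87.1 in Ctrl, 64.5 to 97.3 in Case (median 90.5) and 76.3 to 93.4 in Dapa (median 81.1). The groups overlapped, with a difference of 4.41 for db/db against Ctrl (SE 5.12, limma adjusted p = 0.739). It turned to −9.48 (limma adjusted p = 0.753) from 2 kb upstream and to −12.2 (limma adjusted p = 0.665) within 1 kb of starts, windows that hold the start of Tgfb1 but not the region described next. In every mouse this value was that of a summit in chr7:25680448-25681308, about −6.21 kb from Tgfb1, whose median position is 11 bp from the start of the neighbouring gene B9d2, and it belongs to the rule's window but lies at that gene's start. The region at the start of Tgfb1 itself (chr7:25686509-25687674, median summit −142 bp) was found in 4 Ctrl mice, 2 Case mice and 1 Dapa mouse. Its percentiles were 0, 24.8, 31.4, 21.7 and 45.1 in Ctrl, and the mice of the db/db groups with a summit there were Case 3 (52.2), Case 4 (18.3) and Dapa 7 (41.3). The difference in presence did not pass Fisher's exact test (p = 0.242 for Case, p = 0.0801 for Dapa and p = 0.101 for db/db, each against Ctrl). A region at +2383 bp, in an exon near further annotated starts of Tgfb1, was found in 1 mouse of each group (Ctrl 4, Case 3 and Dapa 8).

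Pdgfrb had no summit within 1 kb of a start in any equal-length list. A summit elsewhere in its window was present in 1 Ctrl mouse, 4 Case mice and 5 Dapa mice. The percentile was 0 in Ctrl 1, 2, 3 and 5 and 7.14 in Ctrl 4. In Case the lowest was 0, the median 10.2 and the highest 60.9 (Case 3), and in Dapa these were 0, 14.4 and 58.9 (Dapa 8). The groups overlapped, and the difference of db/db from Ctrl was 16.5 (SE 9.69, limma adjusted p = 0.515). Without Case 3 and Dapa 8 it was 8.1 (limma adjusted p = 0.507). Their highest summits lay in the same region, at −5127 bp, which no other library held in its equal-length list. These are the libraries with 4 and 3 of 10 leukocyte markers, and the part of such cells in the Pdgfrb values was not tested. In complete lists, all Ctrl mice had a summit in the window, at 13.6 to 35.5, and the difference of db/db from Ctrl was 5.65 (limma adjusted p = 0.856).

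The matrix genes of scars had few summits. Fn1 had a summit in Ctrl 1 (37.4), Ctrl 2 (4.81) and Case 3 (5.38), and in no Dapa mouse. The region at +484 bp of Fn1, in an intron and close to the start of Apol7d, was found in Ctrl 2 and Case 3, and the summit of Ctrl 1 lay at +18539 bp. The difference of db/db from Ctrl was −7.99 (SE 4.81, limma adjusted p = 0.528), and −8.43 (limma adjusted p = 0.48) without Case 3 and Dapa 8. It rested on Ctrl 1, without which it was −0.753 (limma adjusted p = 0.942), and it was −22.6 (limma adjusted p = 0.208) in complete lists.

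Col1a1 stood at 48, 0, 0.966, 0 and 0 in Ctrl, and 3 mice of each db/db group had a summit. In Case the lowest was 0, the median 27.7 and the highest 60.9, and in Dapa these were 0, 21.5 and 56.5. All 8 libraries with a summit shared 1 intronic region at +962 bp (chr11:94936893-94937468), where positions spread over 75 bp. The value of Case 5 (56.6) came from a further summit at +3237 bp. The values of db/db mice were either 0 or between 43 and 60.9. The difference from Ctrl was 17.3 (SE 13.6, limma adjusted p = 0.65), and it was 12.4 (limma adjusted p = 0.697) without Case 3 and Dapa 8, 26.9 (limma adjusted p = 0.533) without Ctrl 1 and 5.97 (limma adjusted p = 0.883) in complete lists. Over 28 alternatives this difference ran from −3.21 to 26.9 and changed sign in 1. Col1a2, the partner chain of type I collagen, had no summit in any equal-length list, and in complete lists it had 1 in Dapa 7 (6.19) and 1 in Dapa 12 (4.55). Acta2 likewise had none, and in complete lists it had 1 in Ctrl 4 (14.8), Dapa 7 (43.3) and Dapa 11 (30). Neither gene entered a test. Over protein-coding genes, 32.9% had no summit within 1 kb of a start in any library.

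The type IV collagens held most of the members' open regions, 15 (Col4a1) and 10 (Col4a3) of 49. Their windows, of 124 and 145 kb, were also the longest among the members. Col4a1, on the minus strand at chr8:11198423-11312826, shares its promoter with Col4a2, and the annotated genes overlap by 22 bases. It had 5, 4, 6, 5 and 6 summits in Ctrl, 4 to 9 in Case (median 6) and 3 to 6 in Dapa (median 4.5). The groups overlapped, and differences in this number did not pass the 2-sided exact permutation test (p = 0.346 for Case against Ctrl, p = 0.0931 for Dapa against Case). Its highest percentile was 82.6, 70.6, 73.3, 78.2 and 88.2 in Ctrl, 66.5 to 93.7 in Case (median 81.4) and 57.4 to 90.1 in Dapa (median 77.9), with a difference of 0.626 for db/db against Ctrl (SE 5.22, limma adjusted p = 0.965). Without Case 3 and Dapa 8 this difference was 2.21 (limma adjusted p = 0.858). Over 28 alternatives it ran from −8.61 to 3.02 and changed sign in 6.

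The steadiest region of Col4a1 was not the shared promoter. A region at +33.2 kb (chr8:11279260-11279935), whose median summit lies in an intron beside an exon of Col4a1 and within 1 kb of the start of a shorter annotated transcript, was found in all 17 libraries, at 70.6 to 88.2 in Ctrl, 66.5 to 93.7 in Case and 57.4 to 90.1 in Dapa. The region at the shared promoter (+12 bp) was found in 2 Ctrl mice, 5 Case mice and 2 Dapa mice, with no percentile above 45 in equal-length lists. In complete lists it held a summit in 4 Ctrl mice, 5 Case mice and 5 Dapa mice, so these counts depended on the list used. The differences in presence did not pass Fisher's exact test (p = 0.242 for Case against Ctrl, p = 0.242 for Dapa against Case). The region at −1029 bp, inside Col4a2, was found in 4 Ctrl mice, all 6 Case mice and 3 Dapa mice, and the intronic region at +78 kb in 5, 4 and 5 mice of Ctrl, Case and Dapa.

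Col4a3, at chr1:82586921-82722059 on the plus strand, showed the same order of regions. Its window held 6, 7, 7, 6 and 5 summits in Ctrl, 3 to 7 in Case (median 6) and 2 to 6 in Dapa (median 5.5), and the difference of Dapa from Ctrl did not pass the 2-sided exact permutation test (p = 0.173). The highest percentile was 85.3, 86.2, 84.9, 95.1 and 87.1 in Ctrl, 63.2 to 95.9 in Case (median 90.9) and 73.3 to 94.9 in Dapa (median 88.7). The difference of db/db from Ctrl was −1.18 (SE 4.33, limma adjusted p = 0.92). The lowest values of their groups were Case 3 (63.2) and Dapa 8 (73.3), and without these the difference turned to 2.47 (limma adjusted p = 0.71), and that of Case from Ctrl went from −0.921 to 3.79.

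The highest summit of Col4a3 was intronic in all mice but Case 6. It lay at +47.9 kb (chr1:82634425-82635107), a region that holds the sequence printed above and was found in all 17 libraries with positions within 182 bp, and 239 bp from the start of the 5S ribosomal RNA gene n-R5s213. The promoter shared with Col4a4 (chr1:82586437-82587373, median summit −45 bp) was found in 5 mice of each group. It stood at 73.3, 76.1, 84.7, 51.4 and 71.1 in Ctrl, 0 to 86.7 in Case (median 53.4) and 0 to 76.3 in Dapa (median 59.7), and the mice without it were Case 2 and Dapa 8. Within 1 kb of starts, the difference of db/db from Ctrl was −19.8 (limma adjusted p = 0.507), and the groups overlapped. A region at +3501 bp was found in 4 of 5 Ctrl and in all 12 db/db mice, at 0 to 62.6 in Ctrl (median 48.6), 5.38 to 90.1 in Case (median 63.3) and 39.7 to 90.8 in Dapa (median 76.7), so that the groups overlapped. Regions at +19151 and +31789 bp were each found in 5 Ctrl mice, 4 Case mice and 3 Dapa mice, numbers that did not allow a test of Dapa against Ctrl. For db/db against Ctrl, neither difference in presence passed Fisher's exact test (p = 0.245 for each, adjusted p = 0.76). The former stood at a median of 31.9 in Ctrl, 32.7 in Case and 13.6 in Dapa. The latter stood at 42.1 to 73.1 in Ctrl (median 57), 0 to 54.6 in Case (median 14) and 0 to 59.9 in Dapa (median 6.9), so that it ranged lower in db/db mice, with overlap. No summit of an equal-length list lay beyond +54616 bp, although the gene runs for 135 kb.

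**Figure D4:**
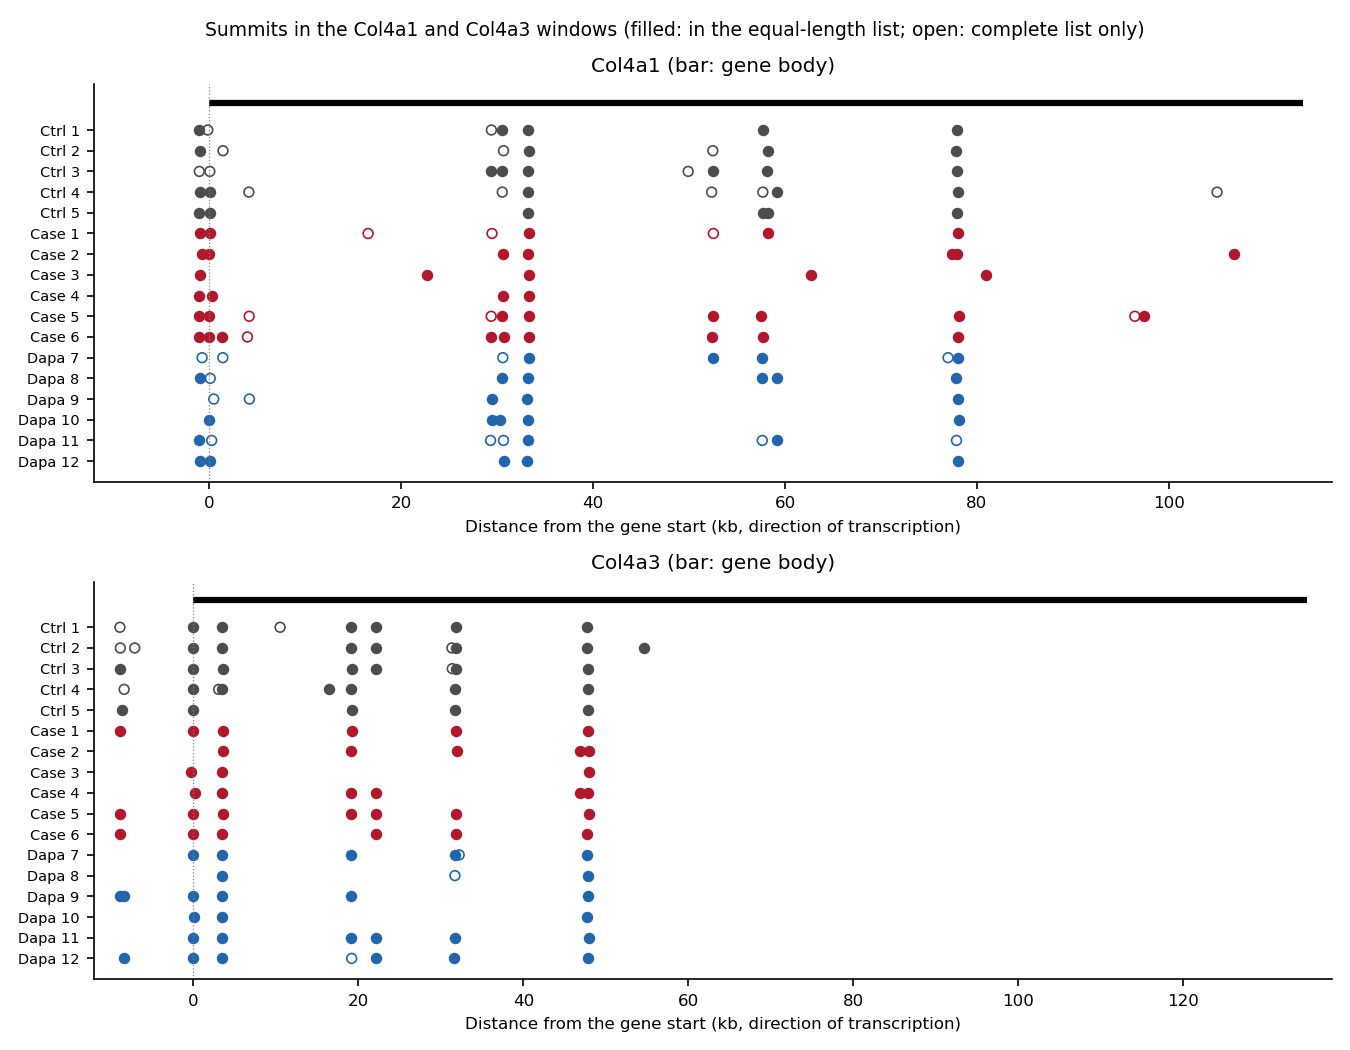
Every summit in the windows of Col4a1 and Col4a3 by distance from the gene start (x axis, kb in the direction of transcription), with 1 row per mouse coloured by group, filled where the summit is in the equal-length list and open where it is in the complete list only. Columns of points at +33.2 kb in Col4a1 and +47.9 kb in Col4a3 run through all 17 mice.

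Over the 10 windows there were 49 regions, of which 22 were found in 1 library, 27 in at least 2 and 4 in all 17. Of the regions in at least 2 libraries, 14.8% were in all 17, against 15% of the 52412 such regions of the genome. None of those that allowed a test differed in presence at an unadjusted p under 0.05. The share of all regions tested that did was 10.2% for Case against Ctrl, 1.17% for Dapa against Case, 8.04% for Dapa against Ctrl and 9.32% for db/db against Ctrl, and after adjustment 0% were called in each comparison. The members had 7, 9, 8 and 18 regions whose number of libraries allowed a test in these comparisons, and the smallest p among them was 0.0801. The number of summits per window likewise gave no call in any comparison (0% of genes), and no member had an unadjusted p under 0.05. The shares of all genes with such a p were 3.4%, 0.738%, 2.74% and 4.54% in the same order.

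**Figure D5:**
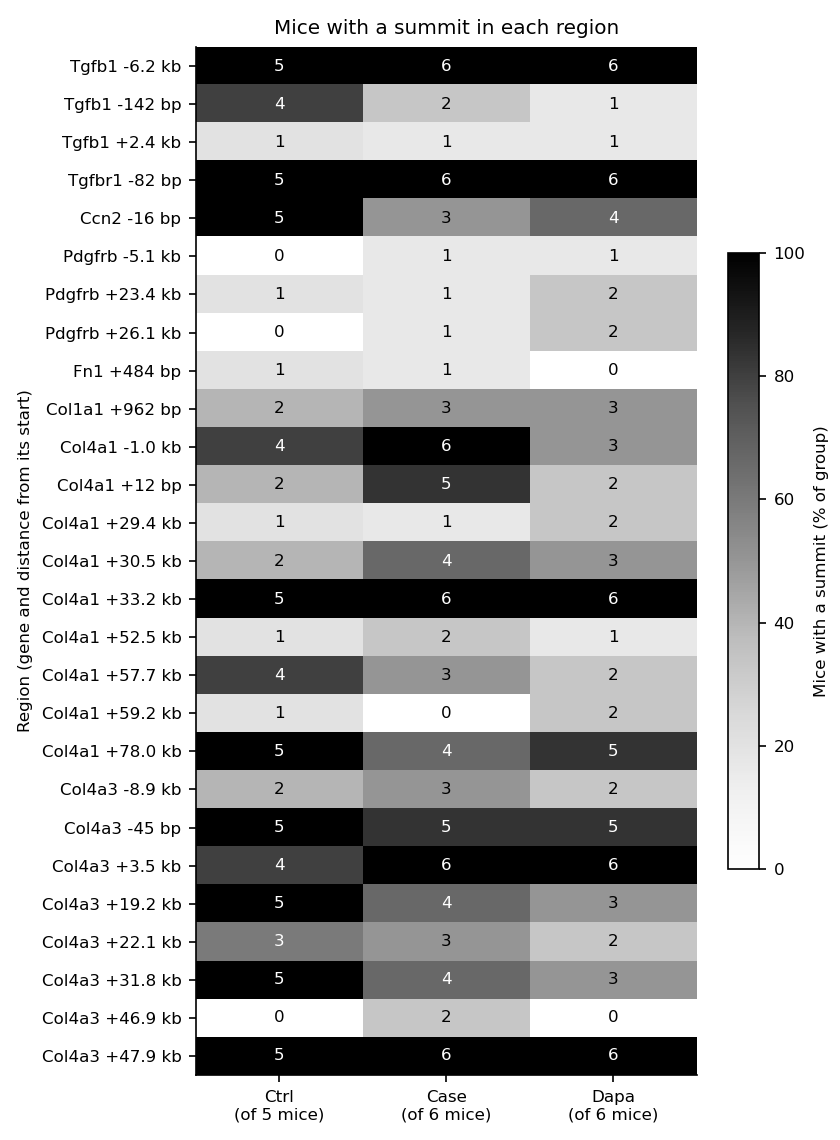
Number of mice with a summit (figures in the cells; shading, percent of the group) in each of the 27 regions found in at least 2 libraries, named by gene and distance from its start. Only the rows Tgfb1 −6.2 kb, Tgfbr1 −82 bp, Col4a1 +33.2 kb and Col4a3 +47.9 kb are full in all 3 groups.

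The wider pathway and matrix lists held 1 call, for db/db against Ctrl, where 0.832% of all genes tested were called. Of 24 further TGF-beta pathway genes, 23 were tested and none was called in any comparison. The median difference of db/db from Ctrl was −1.02 points, against −0.0188 over all genes. Among the smallest unadjusted p values in that list was that of Tgfbi, an extracellular matrix protein induced by TGF-beta (difference −17.4 for Dapa against Case, SE 7.24, limma adjusted p = 0.826, and −11 without Case 3 and Dapa 8). None of 13 tested basement membrane genes was called (median difference 3.42), the first being Col15a1 (difference 29.3 for Case against Ctrl, limma adjusted p = 0.417) and Col4a5 (difference −21.2 for Dapa against Case, limma adjusted p = 0.826), which were 18.8 and −11.7 without Case 3 and Dapa 8. Of 11 tested interstitial matrix genes, Col5a2, a chain of type V collagen, fell in db/db mice, from 52.1 ± 18.4 (SD, n = 5) in Ctrl to 6.19 ± 21.4 (SD, n = 12), a difference of −45.9 (SE 11.1, limma adjusted p = 0.046). The db/db mean rested on Dapa 11 alone. Without that mouse the difference was −52.1, the whole of the Ctrl mean, so no other db/db mouse had a summit in the window. The call with all mice held in 9 of 28 alternatives (limma adjusted p 0.00369 to 0.461). It was lost on leaving out any Case mouse, Ctrl 1, 2 or 3, or any Dapa mouse but Dapa 11. It was also lost with the 14851 highest-scoring summits (difference −13, limma adjusted p = 0.461), with scores of at least 5 (limma adjusted p = 0.0597) and by exact permutation (adjusted p = 0.135). The same held without Case 3 and Dapa 8 (difference −44.7, limma adjusted p = 0.0675) and when a summit in at least 1 library sufficed for testing (limma adjusted p = 0.0622). Col5a2 had no summit within 1 kb of a start in any library, so its value comes from elsewhere in its window.

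None of 12 tested matrix turnover genes was called (median difference 5.2), and the smallest p values were those of Timp2 (difference 20.2 for Dapa against Ctrl, limma adjusted p = 0.48, and 13 without Case 3 and Dapa 8) and Mmp2 (difference 29.4 for Dapa against Case, limma adjusted p = 0.826). None of 13 tested mesangial and mural markers was called (median difference −2.84), and the first were Tagln (difference 27.1, limma adjusted p = 0.356) and Rgs5 (difference −9.08, limma adjusted p = 0.381) for db/db against Ctrl. Among the marker lists, the housekeeping gene Hprt was the single gene called. It fell from 75.5 ± 8.66 (SD, n = 5) in Ctrl to 6.96 ± 17.1 (SD, n = 6) in Case, a difference of −68.5 (SE 13.1, limma adjusted p = 0.0197), and the call held in 27 of 30 alternatives (limma adjusted p 0.00526 to 0.221), being lost without Ctrl 3 (difference −67.6, limma adjusted p = 0.0604), with the replicate block, which also leaves out Case 6 (limma adjusted p = 0.154), and by exact permutation (adjusted p = 0.221). For db/db against Ctrl, Hprt was called as well (difference −55.7, SE 11.5, limma adjusted p = 0.0178). That call held in 27 of 29 alternatives and was lost without Ctrl 3 (limma adjusted p = 0.0663) and by exact permutation (adjusted p = 0.0614). Of all genes tested, 0.386% were called for Case and 0.832% for db/db, each against Ctrl. A difference as large as that of Ccn2 was thus also measured at a gene outside the fibrosis lists. No call was made in the proximal tubule, distal nephron, podocyte, endothelial, leukocyte and other-organ lists, where the smallest p belonged to Slc5a2, which encodes SGLT2 (difference −38.1 for Case against Ctrl, limma adjusted p = 0.187). The other genes of smallest p in these lists were Cubn (difference 21.9 for Dapa against Ctrl), Umod (−20 for Dapa against Case), Cdh16 (−4.27 for Dapa against Case), Nphs1 (17.7 for db/db against Ctrl) and Synpo (9.51 for Dapa against Case), with limma adjusted p of 0.555 to 0.837. For Pecam1 (difference 10.7 for Dapa against Ctrl), Cdh5 (10.9 for db/db), Cd3e (29.7 for Dapa), Cd68 (4.56 for Case), Alb (−12.1 for db/db) and Ins2 (5.89 for Dapa), each against Ctrl, limma adjusted p was 0.46 to 0.732.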

How the data were processed

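Kidney ATAC-seq summit lists of 17 mice were used, grouped by the genotype and treatment labels, which name no batch. Per the labels and the study's methods, the authors aligned reads to mm10 with Bowtie2 and called peaks with MACS2 for each library. Duplicates and blacklisted regions were removed, and reads were shifted by +4 bp on the plus strand and −5 bp on the minus strand for the enzyme. The deposited score is a −log10 value; the sources used here do not say whether of p or q. The score grows with depth, which is unknown, so no counting interval is given and scores were compared only as ranks within a list.

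Summits on 19 autosomes, X and Y were placed on the GENCODE mouse release 21 annotation. Gene windows ran from 10 kb upstream to the gene end. Percentiles of genes with a summit in at least 2 libraries were compared with limma 3.58.1 (R 4.3.3, trend and robust, 1 fit over the 3 groups, 4 contrasts). Summit numbers were compared by exact permutation tests, 2-sided. Regions (summits extended by 250 bp and merged) in at least 2 libraries were compared by Fisher's exact test, among those whose number of libraries allowed p under 0.05. Calls used Benjamini-Hochberg adjusted p-values over all genes or regions tested, with a threshold of 0.05, and a Fisher or permutation p given without the word adjusted is unadjusted. Each library was taken as 1 mouse; where libraries shared an animal, p-values would measure technical spread. The scripts were tested on simulated data. Sequences are from RefSeq GRCm38.p6.

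The members and lists were chosen with earlier results of these data known. All members are named. So is every region in at least 2 libraries that lay within 1 kb of a member's start, was in all 17 libraries or had an unadjusted p under 0.05. From each list, called genes are named, or else the 2 with the smallest p. Some named items are not reported here. Other regions are named to describe the collagen and Pdgfrb windows and were chosen after their values were seen. Itga8 and Cspg4 are likewise named outside these rules. Alternatives were other summit lists, windows, filters, extensions and tests, a replicate block and each mouse left out. Leaving out Case 3 and Dapa 8 together was added after the data were seen.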

Additional observations from a re-analysis of the deposited data

Results flagged for a closer look

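Of 44 sets of member values (highest percentile or summit number, by gene and group) with any spread, 13 held a mouse set apart from its group by Dixon's test at the 95% level. Chance alone would give about 2.2 under a normal spread, which these values do not have, because in most of these sets, those of Col4a3 and the Pdgfrb percentile in Case apart, the other mice mostly shared 1 value.

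Case 3 was set apart in 5 of these sets. Its Pdgfrb percentile was 60.9, with the other Case mice between 0 and 16.2, and it had 3 Pdgfrb summits against 0 or 1. Its Fn1 percentile was 5.38 with 1 summit, where no other Case mouse had any. Its Col4a3 percentile of 63.2 was the lowest, with the others between 84.4 and 95.9. This library also had the most leukocyte markers with a promoter summit, 4 of 10, the most podocyte markers, 4 of 6, and the fewest proximal tubule markers, 3 of 6. The part of these cell types in its values was not tested.

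In Ctrl, mouse 4 was set apart for Pdgfrb (percentile 7.14 from 1 summit, all others 0) and for Col4a3 (percentile 95.1, others 84.9 to 87.1). Ctrl 1 was set apart for Fn1 (percentile 37.4, others 0 to 4.81) and Col1a1 (percentile 48, others 0 to 0.966), and Ctrl 3 for Ccn2, with 2 summits against 1. Case 6 had 2 Tgfbr1 summits against 1, and Dapa 11 had 0 Ccn2 summits against 1.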

How the results depend on the processing

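The call of Ccn2 in db/db against Ctrl was lost in 13 of 29 alternatives, given beside it in the report, and its difference kept its sign in all. No alternative called another member. Of 1708 member values recomputed, 1662 stayed within the replicate spread and on their side of the threshold, 29 moved beyond that spread, and 13 lost and 4 gained a call. No called difference changed sign, but 76 of 891 recomputed percentile differences did, none of them called (among them Tgfb1, Col1a1, Col4a1 and Col4a3 for db/db against Ctrl, given in the report). The number of genes called by limma depended strongly on the settings. For Case against Ctrl (110 genes) it was 175 with the 14851 highest-scoring summits, 703 with scores of at least 5, 239 with 10 kb to each side, 70 within 1 kb of starts, 41 with only the groups compared, 70 without Case 3 and Dapa 8 and 0 with exact permutation tests. For Dapa against Ctrl (36 genes) it was 15 with complete lists, 122 with the 14851 highest-scoring summits, 274 with scores of at least 5, 94 with 10 kb to each side, 120 with limma without trend and robust, 18 with only the groups compared and 0 with exact permutation tests. For db/db against Ctrl (237 genes) it was 884 with scores of at least 5, 406 with 10 kb to each side, 149 within 1 kb of starts and 0 with exact permutation tests. For Dapa against Case (0 genes) it was 1 within 1 kb of starts and 1 without Case 3 and Dapa 8. Leaving out each mouse in turn gave 40 to 220, 10 to 117, 86 to 304 and 0 to 1 genes in the same order. Complete lists also moved the split of calls for db/db against Ctrl from 71 higher and 166 lower to 14 higher and 156 lower. Summit numbers and regions gave 0 calls under every alternative run, which says little of stability, since between 2 of the groups an exact permutation p cannot go below 0.00433 (5 against 6 mice) or 0.00216 (6 against 6), nor Fisher's exact p below 0.00216, and at least 7176 genes or regions were tested in each comparison. The permutation limits hold for percentiles as well. For db/db against Ctrl the lowest possible p was smaller, 3.23e-04 by exact permutation and 1.62e-04 by Fisher's exact test, so the limits between 2 groups do not apply there. The cause of these shifts was not tested.

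Same-numbered Ctrl and Case mice did not deviate together (correlations −0.0472 to 0.0422), which does not settle whether the numbers pair them. With the number as a replicate block, in a fit of Ctrl and Case alone that also leaves out Case 6, which has no Ctrl partner, 0 genes were called and Ccn2 differed by −59.7 (limma adjusted p = 0.154). Without Case 6 and with no block, Ccn2 differed by −59.7 as well. Depth is unknown, and a weak summit in a shallow library is not told apart from a missing one.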
